A study of Mus musculus with 6 samples.

Results

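Annotated non-coding loci that lie clear of coding genes are described here in mouse pancreatic islets on a normal or a high fat diet. A locus is a group of overlapping assembled transcripts, named XLOC and a number in the deposited assembly. A member had a transcript that matched a known one or shared a splice junction with it, no coding flag on any transcript, 2 or more exons, and a span that touched no coding locus on either strand. Of 39470 loci, 7281 were annotated and had no coding flag, 2962 of these had 2 or more exons, and 1821 of those were clear of coding loci. After 14 were left out by name (Miat, Mirg, H19, Gas5 and the Snhg genes), the 548 with at least 60 counts over the 6 libraries became the members. The other 1259 were below that minimum, 490 of them at 0 counts. The members just inside it held 60, 61 and 61 counts, and the loci just outside held 59, 58 and 57.

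All mice were C57BL/6, an inbred laboratory strain, 14 weeks old when killed after 8 weeks on their diet. Islets, the clusters of hormone-secreting cells in the pancreas, gave 3 libraries of total RNA from the normal diet and 3 from the high fat diet. Libraries held between 104657337 and 135353777 counts. The members took between 0.432% and 0.49% of the counts in normal diet and between 0.351% and 0.398% in high fat libraries. Whether each library is a separate animal is not in the labels, and the p-values therefore refer to the spread between libraries, which may be technical. The reading of the column prefix HDR as high fat is an inference from the names, and every direction rests on it. On the second principal component high fat library 3 lay at 59.4, away from the others of its group at -32.3 and -25.5. The islet hormone genes Ins1, Ins2, Iapp, Gcg and Ppy were all present, while the loci matched to Slc2a2 and Nkx6-1, both beta cell genes, were listed at 0 and shared 100% and 99.5% of their exonic bases with another locus. Of the cell type marker lists not taken up below, beta cells had 1 gene higher (Iapp), myeloid cells and neurons 1 lower each, and acinar, duct, endothelial, delta and PP, and lymphocyte markers none past the test. The summed acinar level ran from 3014 to 5807 CPM in normal diet and from 4316 to 9335 CPM in high fat libraries (CPM are counts scaled per library with TMM factors), and its part in the results was not tested. The TMM factors ran from 1.048 to 1.103 in normal diet and from 0.9085 to 0.9583 in high fat libraries.

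Long non-coding RNAs are transcribed and spliced like messenger RNAs but are not known to encode a protein. Some act in the nucleus on chromatin, some are the precursors from which microRNAs are cut, and many start head to head with a coding gene, from a shared promoter. A microRNA pairs through its seed, bases 2 to 8 from its 5′ end, with the messenger RNAs that it represses, so that microRNAs with the same seed share many targets. Symbols were inferred from intron and exon lengths for 476 members, and 72 keep their locus identifier. Of the named members 55 match a gene that a later annotation types as protein coding, such as Mrln, which encodes a muscle micropeptide, and Oaz1, which encodes an inhibitor of polyamine synthesis.

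In 20 members the matched gene holds a microRNA. Mature microRNAs are shown of genes matched to 2 loci that fell, Lncppara and 3110039I08Rik, and to 2 that missed the test, Mir99ahg and A330023F24Rik. They were chosen because they fall into few seed groups, so the grouping is part of the choice. None is shown for Carmn, which also fell, or for Gm26871 and AL805899.1, which narrowly missed the test. The mature sequences are from RefSeq (GRCm38.p6), 5′ to 3′, with the seed in capitals. Lncppara, for which RefSeq lists the synonym Mirlet7bhg, holds let-7c-2 and let-7b in its exons, and Mir99ahg holds miR-99a and let-7c-1 in its introns. The RefSeq gene of 3110039I08Rik, Mir100hg, holds miR-100, let-7a-2 and miR-125b-1 in introns, and A330023F24Rik holds miR-29b-2 and miR-29c in an exon. The measured locus 3110039I08Rik spans 13098 bases of a gene of 389918, less than lies between miR-100 and miR-125b-1. It therefore cannot hold all of these hairpins, and whether it holds any was not checked.
mmu-let-7c-5p: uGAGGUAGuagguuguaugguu
mmu-let-7b-5p: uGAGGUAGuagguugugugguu
mmu-miR-100-5p: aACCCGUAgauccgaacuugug
mmu-miR-99a-5p: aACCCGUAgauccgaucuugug
mmu-miR-125b-5p: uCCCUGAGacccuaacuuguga
mmu-miR-29b-3p: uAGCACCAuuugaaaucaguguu
mmu-miR-29c-3p: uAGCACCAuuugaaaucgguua
The let-7 microRNAs share the seed GAGGUAG, miR-99a and miR-100 share ACCCGUA, and miR-29b and miR-29c share AGCACCA. In the order chromosome, first and last base (GRCm38.p6, plus strand), the mature let-7b-5p lies at chr15:85707325-85707346, miR-100-5p at chr9:41531437-41531458, miR-99a-5p at chr16:77598940-77598961 and miR-29c-3p at chr1:195037600-195037621. The libraries measured long RNA of the host loci, and mature microRNAs were not measured.

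The question was which of these non-coding loci differ between the diets. Of 546 members tested, 14 had a higher and 31 a lower level on the high fat diet by the quasi-likelihood test of edgeR (Benjamini-Hochberg over 23983 loci, threshold 0.05). That is 8.24% of the members, against 10.8% of all loci tested (5.95% higher and 4.86% lower). The median log2 fold change was -0.09 for the members, -0.05 for all loci tested, 0.06 for coding loci and -0.34 for the 616 annotated non-coding loci that overlap a coding locus, of which 8 were higher and 68 lower. Libraries of the diets did not overlap for 63 members in the higher and 122 in the lower direction, together 33.9% against 39.2% of all loci (18.8% higher and 20.4% lower). With TMM factors from coding loci the split was 8 higher and 38 lower, with a median of all loci of -0.13. DESeq2 with its own size factors gave 28 and 46, with a median of -0.07, and limma on the deposited scaled values, which changes both the test and the scaling, gave 7 and 79, with a median of -0.15. Over all loci, coding-only TMM factors called 1956, DESeq2 4129 and limma 3510, beside 2591 in the main fit. Without normal diet library 1, 2 or 3 edgeR called 0 members, with 118, 123 and 109 at p under 0.05 before adjustment. It called 0 of all loci in those fits too. When high fat library 1, 2 or 3 was left out, the counts were 1 and 1, 0 and 0, and 25 and 58. Over all loci 128, 86 and 5035 were then called.

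Level and distance went with the share called. Of 143 members with a mean of at least 5 CPM, 7 were higher and 17 lower, or 16.8%. Below 0.3 CPM the counts were 1 and 5 of 137, or 4.38%. Of 126 members at least 50 kb from the nearest coding locus, 6 were higher and 13 lower, or 15.1%, at a median level of 0.563 CPM. Of 203 members within 1 kb of a coding locus, 2 were higher and 9 lower, or 5.42%, at a median of 1.79 CPM. The members far from coding loci held the larger share of calls although their median CPM, which also depends on length, was lower. The difference between these shares was not tested.

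**Figure D1:**
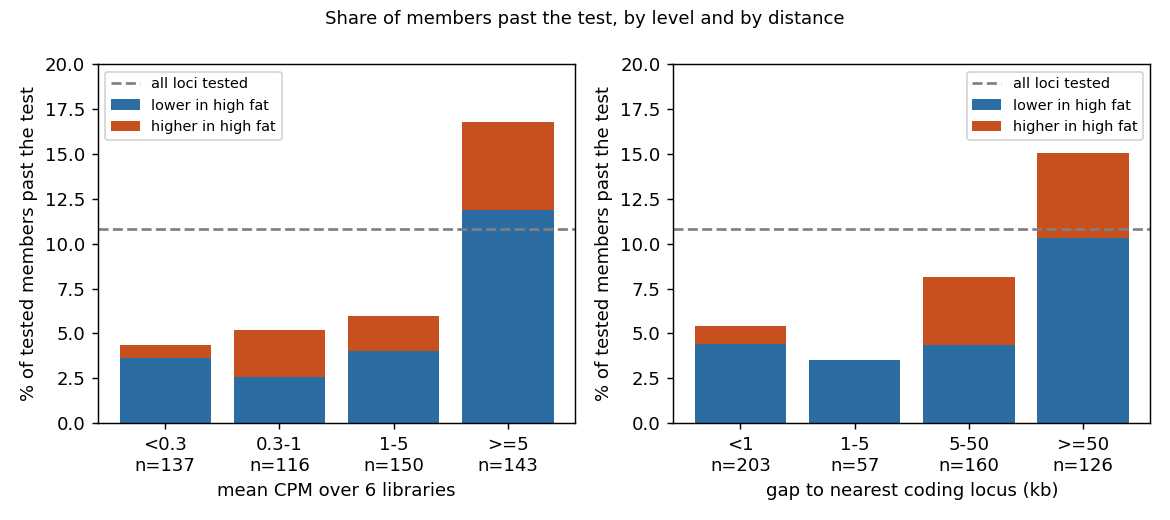
Percentage of tested members past the edgeR test (vertical axis) by mean CPM (left) and by gap to the nearest coding locus (right), split into lower and higher in high fat islets, with the number tested under each bar. The dashed line is the share over all loci tested, 10.8%. The bars for at least 5 CPM (16.8%) and for at least 50 kb (15.1%) stand above it.

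Of the loci matched to microRNA host genes, Lncppara, 3110039I08Rik and Carmn fell on the high fat diet. Lncppara, a let-7 precursor, had 36.9, 30.9 and 29.3 CPM in the normal diet libraries and 20.7, 16.4 and 17 CPM in the high fat libraries. The lowest normal diet library was above the highest high fat library. It fell by 0.84 on the log2 scale (SE 0.13, edgeR adjusted p = 0.019). The locus lies on the plus strand at chr15:85501984-85540380 (mm9), 25613 bases from Ppara, which encodes a nuclear receptor of fatty acid metabolism. Ppara itself had a log2 fold change of -0.16 (edgeR adjusted p = 0.47).

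The let-7 microRNAs repress regulators of growth and are known to affect glucose handling. The locus 3110039I08Rik, at chr9:41387964-41401061 (mm9), had 6.03, 5.94 and 7.39 CPM in the normal diet libraries and 3.73, 3.10 and 4.99 CPM in the high fat libraries. The diets did not overlap, and it fell by 0.71 on the log2 scale (SE 0.19, edgeR adjusted p = 0.0497). It spans 13098 bases of a gene of 389918 bases, so its reads come from a small piece of Mir100hg. Without high fat library 3 its adjusted p was 0.00667, and without either of the others in that group it was 0.113 or 0.132.

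Mir99ahg holds miR-99a, with the seed of miR-100, and a let-7 microRNA. It had 2.24, 1.98 and 1.90 CPM in the normal diet libraries and 0.804, 1.29 and 1.61 CPM in the high fat libraries. All high fat libraries lay below the normal diet libraries, but the log2 fold change of -0.72 (SE 0.25) missed the test (edgeR adjusted p = 0.087). A330023F24Rik, the miR-29 host, had 116, 87.1 and 86.7 CPM in the normal diet libraries and 67.2, 54.4 and 75.8 CPM in the high fat libraries. Its diets did not overlap either, and its log2 fold change of -0.55 (SE 0.15) narrowly missed the test (edgeR adjusted p = 0.0503). In beta cells miR-29 is known to repress a monocarboxylate transporter that these cells keep silent.

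Carmn, on chromosome 18, is known from heart and smooth muscle, and RefSeq lists for it the synonym Mir143hg. It had 2.29, 1.44 and 1.70 CPM in the normal diet libraries and 0.892, 0.818 and 1.24 CPM in the high fat libraries. Diets did not overlap, and it fell by 0.87 on the log2 scale (SE 0.24, edgeR adjusted p = 0.0496). Without high fat library 3 its edgeR adjusted p was 0.0145, and without any 1 of the other libraries it ran from 0.0863 to 0.154. Of 6 stromal markers, the mural cell genes Acta2 and Rgs5 were higher in high fat islets (log2 fold changes 0.83 and 0.69), while Pdgfrb (-0.01), Col3a1 (-0.44), Col1a2 (-0.65) and Col1a1 (-1.37) did not pass, and the median of the list was -0.22. The summed level of the stromal list, most of it Rgs5, ran from 335.9 to 414.7 CPM in normal diet and from 427 to 550.3 CPM in high fat libraries, and its part in the Carmn result was not tested. In bulk islets, fewer cells of a type and less RNA per cell cannot be told apart.

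The other hosts had lower counts or smaller differences. Gm26871, matched to the host of miR-137, had 0.480, 0.474 and 0.701 CPM in the normal diet libraries and 0.362, 0.197 and 0.216 CPM in the high fat libraries, without overlap (log2 fold change -1.09, SE 0.30, edgeR adjusted p = 0.0517). AL805899.1, the miR-31 host, missed the test with a value of -0.59 on the log2 scale (SE 0.17, edgeR adjusted p = 0.0551). Mir22hg held 18.8, 14.4 and 14.7 CPM against 16.0, 16.5 and 16.2 CPM, with overlap and a log2 fold change of 0.02 (SE 0.13) that turned negative (-0.06) with TMM factors from coding loci. B230208H11Rik stood at 0.173 ± 0.034 CPM and 0.135 ± 0.0032 CPM (SD, n = 3 each; log2 fold change -0.36, edgeR adjusted p = 0.44). Over the 19 tested members whose matched gene holds a microRNA, 2 were lower and none higher (10.5%, beside 10.8% of all loci tested). The diets did not overlap for 12 in the lower and 1 in the higher direction (68.4%, beside 39.2% of all loci). Their median log2 fold change was -0.48, beside -0.05 for all loci. The loci matched to E130102H24Rik, 2210011C24Rik and Ftx shared from 45.9% to 87.0% of their exonic bases with another locus. Their counts may be affected, since how reads of shared bases were counted is not given in the sources used here. Of the microRNA host list, 7 of 26 names were members, and 3 of these 7 were lower and none higher.

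**Figure D2:**
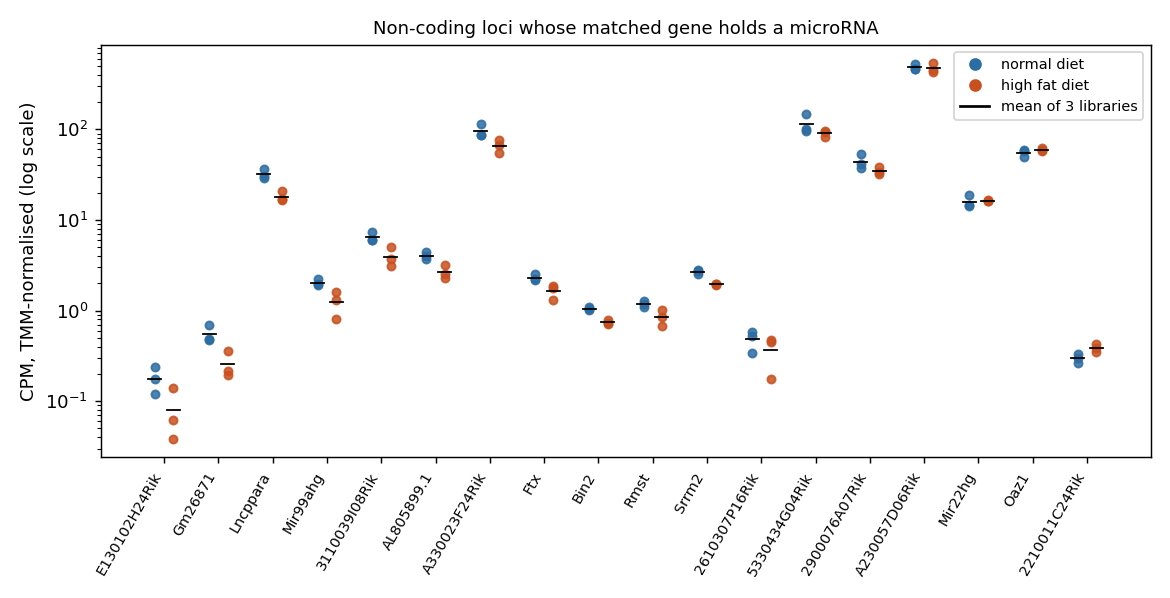
Level in CPM on a log axis in each library (points) and the mean of 3 libraries (lines) for 18 of the 19 tested members whose matched gene holds a microRNA, ordered by log2 fold change. Lncppara and 3110039I08Rik passed the test, and A230057D06Rik, the most abundant of them, overlapped between diets.

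Promoter windows of the RefSeq genes matched by symbol to the fallen Lncppara, Lncpint, Firre and 4632427E13Rik are shown to let their letters be compared. Whether the RefSeq starts are those of the measured loci was not checked. Lncpint is a p53-responsive long non-coding RNA, and Firre is an X-linked RNA, built in part of repeats, that takes part in nuclear organisation. Each window runs from 250 bases before to 50 bases after the RefSeq start (GRCm38.p6), in the direction of transcription, and capitals mark matches to any of the motifs searched. Those were the TATA box (TATAAA), the letters CCAAT, the GC box (GGGCGG), the E-box (CACGTG), a cyclic AMP response element (TGACGTCA) and a STAT-type palindrome (TTCNNNGAA). Both strands were read, and none of the motifs contains another. The windows are chr15:85703523-85703822 (plus strand), chr6:31218425-31218724 (minus), chrX:50635272-50635571 (minus) and chr7:92741410-92741709 (minus).
Lncppara: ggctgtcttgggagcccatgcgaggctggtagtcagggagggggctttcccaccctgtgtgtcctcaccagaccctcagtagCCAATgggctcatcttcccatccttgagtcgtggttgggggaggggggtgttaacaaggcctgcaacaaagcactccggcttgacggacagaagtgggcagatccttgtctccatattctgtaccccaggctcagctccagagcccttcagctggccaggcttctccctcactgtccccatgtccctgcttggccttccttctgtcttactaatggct
Lncpint: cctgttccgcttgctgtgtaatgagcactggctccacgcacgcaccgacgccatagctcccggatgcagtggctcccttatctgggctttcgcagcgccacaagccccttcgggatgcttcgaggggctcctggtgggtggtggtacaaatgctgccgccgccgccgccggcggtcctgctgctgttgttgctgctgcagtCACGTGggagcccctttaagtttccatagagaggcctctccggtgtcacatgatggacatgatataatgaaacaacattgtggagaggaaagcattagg
Firre: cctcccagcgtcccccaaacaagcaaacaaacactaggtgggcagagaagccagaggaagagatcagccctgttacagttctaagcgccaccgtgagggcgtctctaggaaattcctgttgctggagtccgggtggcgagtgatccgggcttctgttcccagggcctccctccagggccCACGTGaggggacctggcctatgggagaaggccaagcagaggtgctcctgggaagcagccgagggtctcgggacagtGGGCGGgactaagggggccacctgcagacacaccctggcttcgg
4632427E13Rik: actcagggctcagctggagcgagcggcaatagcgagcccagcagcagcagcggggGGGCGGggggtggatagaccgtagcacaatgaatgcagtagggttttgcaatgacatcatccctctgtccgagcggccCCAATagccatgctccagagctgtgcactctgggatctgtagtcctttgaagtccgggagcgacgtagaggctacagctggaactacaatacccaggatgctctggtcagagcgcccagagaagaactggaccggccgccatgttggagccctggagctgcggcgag
The Lncppara window has 4 CpG dinucleotides and the other windows have 18 (Lncpint), 12 (Firre) and 16 (4632427E13Rik). In RefSeq 414 members matched a symbol, and 336 of the matched genes had promoter windows, 399 of them, beside 32851 windows in all. The GC box was in 48.1% of the members' windows and in 35.7% of all windows, CCAAT in 40.4% and 37.4%, TATAAA in 11% and 13.6%, and the E-box in 9.27% and 7.15%. The members' windows held a median of 12 CpG against 7. Of the 31 members that fell, 11 genes had 12 windows, of which 7 held CCAAT, 4 the E-box and 0 TATAAA. Of the 14 that rose, 10 genes had 10 windows, of which 3 held CCAAT, 0 the E-box and 1 TATAAA. These are matches of letters in small sets, with no test.

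Firre, of the X-linked list, and Lncpint, of the list of nuclear and chromatin RNAs, were lower in high fat islets. Firre had 117, 97.4 and 89.4 CPM in the normal diet libraries and 82.1, 64.9 and 73.9 CPM in the high fat libraries. All high fat libraries lay below the normal diet libraries, and it fell by 0.46 on the log2 scale (SE 0.12, edgeR adjusted p = 0.0489). Lncpint had 38.3, 29.8 and 28.7 CPM in the normal diet libraries and 23.6, 21.4 and 17.9 CPM in the high fat libraries, again without overlap (log2 fold change -0.62, SE 0.15, edgeR adjusted p = 0.035). The locus matched to Oip5os1 (1700020I14Rik, also called Cyrano), an RNA that triggers decay of miR-7, had 106, 109 and 112 CPM against 104, 103 and 120 CPM. Its diets overlapped, its log2 fold change was -0.01 (SE 0.086), and its sign changed with DESeq2 (0.04).

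Of 5 X-linked names, 4 were members, and Firre was the one that passed, in the lower direction. Xist, which coats the inactive X chromosome of female cells, had a mean of 0.149 ± 0.0056 CPM in normal diet and 0.0787 ± 0.033 CPM in high fat libraries (SD, n = 3 each; edgeR adjusted p = 0.14). Its neighbours in the X inactivation centre, Jpx and Ftx, had log2 fold changes of -0.14 and -0.50 (edgeR adjusted p = 0.58 and 0.099). XLOC_038271, at chrX:100757038-100806702 (mm9), lies over Ftx on the other strand and had 42.6, 25.1 and 30.7 CPM in the normal diet libraries and 17, 14.4 and 18.3 CPM in the high fat libraries. No high fat library reached the normal diet range, and it fell by 0.98 on the log2 scale (SE 0.19, edgeR adjusted p = 0.026). Whether counting used strand is not given in the sources used here, so reads of Ftx and of this locus might not have been told apart. Of 23 tested members on the X chromosome, 1 was higher and 3 lower (17.4%, beside 10.8% of all loci tested).

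The list of stress, growth and immunity RNAs had 7 tested members, of which 1, Carmn, was lower and none higher (median log2 fold change 0.22). Lockd, transcribed next to the cell cycle inhibitor gene Cdkn1b, had 1.85, 2.46 and 2.38 CPM in the normal diet libraries and 3.11, 5.12 and 1.94 CPM in the high fat libraries. High fat library 3 was within the normal diet range, and the difference did not pass (log2 fold change 0.60, SE 0.32, edgeR adjusted p = 0.22). Gm14005 (Morrbid, an RNA that limits a cell death gene in myeloid cells), Dubr, 4933421O10Rik, Bvht and Fendrr had log2 fold changes from -0.07 to 0.27, none past the test. Both members of the neuroendocrine list, Rmst and Foxd2os, missed it too, at -0.47 (SE 0.20) and 0.26 (SE 0.28). None of the 7 imprinted names on the list was a member. The nuclear list had 2 members of 18 names, Lncpint, which was lower, and 1700020I14Rik, which did not pass.

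The falls of largest size among members of at least 1 CPM were mostly at loci of unknown function. C530044C16Rik, at chr6:50726114-50764893 (mm9), had 39.3, 30.7 and 26.6 CPM in the normal diet libraries and 18.7, 15.4 and 19.1 CPM in the high fat libraries (log2 fold change -0.86, SE 0.16, edgeR adjusted p = 0.023). Gm20732 had 47.5, 31.6 and 34.5 CPM in the normal diet libraries and 22.0, 20.03 and 23.1 CPM in the high fat libraries (log2 fold change -0.80, SE 0.15, edgeR adjusted p = 0.026). In both, normal diet library 1 was the highest of the 6 and the diets did not overlap. XLOC_031178 fell by 1.22 on the log2 scale (SE 0.26, edgeR adjusted p = 0.029), from 7.34, 4.6 and 3.76 CPM to 2.34, 1.83 and 2.55 CPM. It shared 68.3% of its exonic bases with another locus, so that its count may be affected by how reads of shared bases were handled. XLOC_038525 on the X chromosome fell by 0.81 on the log2 scale, from 2.04 ± 0.30 CPM to 1.17 ± 0.23 CPM (SD, n = 3 each).

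The rise of largest size among them was at Gm2115, at chr7:91677485-91733273 (mm9), which the later annotation types as protein coding. It had 4.46, 4.63 and 6.36 CPM in the normal diet libraries and 15.1, 15.4 and 8.47 CPM in the high fat libraries. High fat library 3 was the lowest of its group but still above the normal diet range (log2 fold change 1.33, SE 0.24, edgeR adjusted p = 0.024). Without that library the log2 fold change was 1.57. Gm20754 also varied within the high fat group, with 9.62, 7.56 and 5.34 CPM against 3.55, 2.97 and 4.34 CPM on the normal diet (log2 fold change 1.05, SE 0.23, edgeR adjusted p = 0.032). Gm41177 was more even, with 2.30, 2.55 and 2.69 CPM in the normal diet libraries and 4.68, 4.95 and 4.26 CPM in the high fat libraries (log2 fold change 0.88, SE 0.14, edgeR adjusted p = 0.020).

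XLOC_008742, a locus on chromosome 13 from 13324678 to 13325188 (mm9), had 20.6, 19 and 17.6 CPM in the normal diet libraries and 27.9, 27.8 and 27.5 CPM in the high fat libraries. The high fat libraries were nearly equal and all above the normal diet libraries (log2 fold change 0.54, SE 0.097, edgeR adjusted p = 0.023). 1110019D14Rik, Map2k3os, Gm17767 and Gm26834 rose by between 0.48 and 0.59 on the log2 scale, and Gm17767 shared 49.9% of its exonic bases with another locus. Map2k3os starts 53 bases from Map2k3, a kinase gene of stress signalling, which had a log2 fold change of 0.16 (edgeR adjusted p = 0.62). Below 1 CPM, 1700049E15Rik had 0.288, 0.447 and 0.358 CPM in the normal diet libraries and 1.48, 1.44 and 0.987 CPM in the high fat libraries. The log2 fold change was 1.84 (SE 0.25, edgeR adjusted p = 0.015) with no overlap. B930025P03Rik, taken up after its values were seen for having the highest fitted rise, held 8, 2 and 3 counts in the normal diet libraries and 27, 17 and 25 counts in the high fat libraries (log2 fold change 2.52, SE 0.47, edgeR adjusted p = 0.025).

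**Figure D3:**
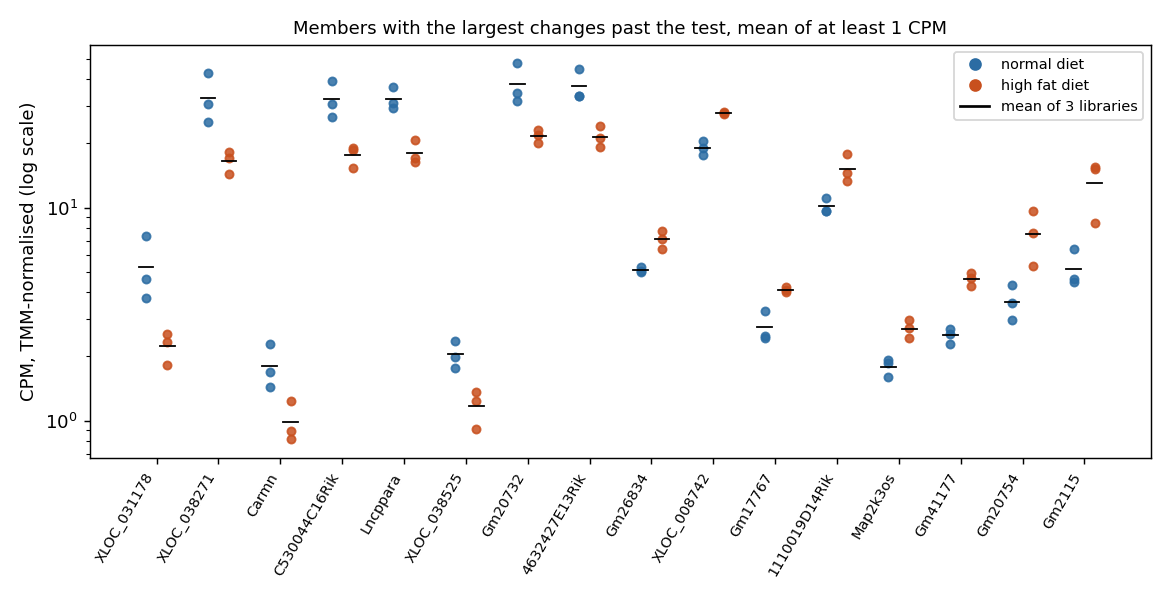
Level in CPM on a log axis in each library (points) and the mean of 3 libraries (lines) for the 8 falls and 8 rises of largest size among members past the test with a mean of at least 1 CPM. The diets do not overlap for any of them, and Gm2115 and Gm20754 show the widest spread within the high fat group.

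Most of the 10 members of highest level by CPM did not pass the test between diets. A230057D06Rik, whose gene holds 7 Mir344 microRNA genes, had 522, 463 and 463 CPM in the normal diet libraries and 455, 432 and 535 CPM in the high fat libraries. The ranges overlapped, and the log2 fold change was -0.03 (SE 0.10) and positive with DESeq2 (0.02). Fam120aos had 97.6 ± 7.1 CPM and 113 ± 9.4 CPM, 5330434G04Rik 116 ± 28 and 90.5 ± 7.1 CPM, and XLOC_014942 89.4 ± 30 and 63.2 ± 17 CPM on the normal and the high fat diet (SD, n = 3 each). None of these passed, nor did Mrln, Gm4419 and 1810008I18Rik, with log2 fold changes from 0.07 to 0.16 that were negative with limma on the scaled values. Of the 10, Firre alone passed, and A330023F24Rik narrowly missed the test with diets that did not overlap. Per kilobase of exon, Mrln stood at 213, Fam120aos at 40.9, A230057D06Rik at 26.6, Gm4419 at 21.7, Firre at 11 and A330023F24Rik at 8.71 CPM per kb, averaged over the libraries.

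Each member was also set beside its nearest coding locus, to ask whether the pair changed together. The median gap was 6318 bases. Of 546 pairs, 288 (52.7%) had fold changes of the same sign, and Spearman's rho across pairs was 0.18. Both values come from the same libraries, and pairs are not replicates. On the high fat diet the coding neighbour was higher in 52 of the 546 pairs and lower in 16 (some members share a neighbour), where over all coding loci tested 1225 of 14396 were higher and 452 lower. Both passed in 4 pairs, each time in the same direction.

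These 4 pairs were picked after their values were seen. XLOC_009135, at chr13:72753898-72766027 (mm9), starts 399 bases from Irx2, a homeobox gene of alpha cells, on the other strand. It had 10.7, 10.9 and 11.2 CPM in the normal diet libraries and 7.21, 7.25 and 8.44 CPM in the high fat libraries, while Irx2 had 19.8, 22.0 and 22.9 CPM and 15.8, 14.7 and 14.3 CPM. Neither gene overlapped between diets, and their log2 fold changes were -0.52 (SE 0.12, edgeR adjusted p = 0.034) and -0.53 (SE 0.10, edgeR adjusted p = 0.027). Of 4 alpha cell markers found, Irx1 and Irx2 were lower and none higher, and the summed level of the list, most of it Gcg, ran from 22140 to 24450 CPM in the normal diet libraries and from 17360 to 21020 CPM in the high fat libraries. Its part in the result was not tested. The other pairs were higher together: Gm41177 with the Wnt receptor gene Fzd3 (0.88 and 0.45), Gm49164 with Sucla2, of the citric acid cycle (0.45 and 0.37), and 1700049E15Rik with Ccdc91 (1.84 and 0.35).

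Head to head starts within 1000 bases of each other were found in 172 pairs, the layout of a shared promoter. Of these members 1 was higher and 6 lower (4.07%), and the coding neighbour was higher in 21 pairs and lower in 3, in the direction to which coding loci as a whole leaned. Among the other 374 members 13 were higher and 25 lower (10.2%), and the difference between the shares was not tested. Spearman's rho of the fold changes was 0.22 over the 172 pairs and 0.16 over the others. The fall of 4632427E13Rik, from 44.8, 33.4 and 33.4 CPM to 21.1, 19.2 and 24.2 CPM, was without overlap (log2 fold change -0.79, SE 0.14, edgeR adjusted p = 0.024). Rab30, a Golgi GTPase gene that starts 196 bases from it, had 2.23, 2.03 and 1.90 CPM against 1.43, 2.11 and 1.99 CPM, with overlap and a log2 fold change of -0.16.

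Its promoter window is the last of those printed above. The difference between the fold changes of 4632427E13Rik and Rab30 did not pass (limma difference -0.61, SE 0.20, adjusted p = 0.083). 2900052L18Rik fell by 0.64 on the log2 scale (SE 0.12, edgeR adjusted p = 0.025), from 10.9, 13.0 and 11.4 CPM to 7.96, 7.35 and 7.33 CPM. Its neighbour Bahcc1 had a log2 fold change of -0.66, with a wider spread (SE 0.24, edgeR adjusted p = 0.10). In the other 6 head to head pairs named by the smallest adjusted p, it was the coding gene that rose.

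The 6 coding genes have different roles. Man1a, which trims sugars in the Golgi, rose by 0.83 on the log2 scale, while its partner Gm16998 had 0.216, 0.246 and 0.203 CPM in the normal diet libraries and 0.141, 0.217 and 0.255 CPM in the high fat libraries. Sar1a, a GTPase of vesicle coats at the endoplasmic reticulum, rose by 0.47, and 1700022H01Rik had 0.168, 0.164 and 0.175 CPM against 0.115, 0.269 and 0.146 CPM. Copb2, a subunit of the Golgi vesicle coat, rose by 0.42, and 4930579K19Rik had 4.89, 4.95 and 5.26 CPM against 5.06, 4.85 and 3.58 CPM. In all 3 members the diets overlapped. Emc2, of an endoplasmic reticulum membrane complex, and Cct8, of a chaperonin, rose by 0.50 and 0.37, and their partners Gm10373 and B130034C11Rik did not pass (log2 fold changes 0.81, SE 0.67, and 0.32, SE 0.23). The adjusted p of the difference within these 5 pairs ran from 0.075 to 0.81, so unequal change was not shown. Arl4a, a small GTPase gene, rose by 0.54 beside XLOC_006831, which had 0.592, 0.547 and 0.533 CPM in the normal diet libraries and 0.486, 0.331 and 0.293 CPM in the high fat libraries. That difference passed (limma difference -1.14, SE 0.26, adjusted p = 0.047).

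**Figure D4:**
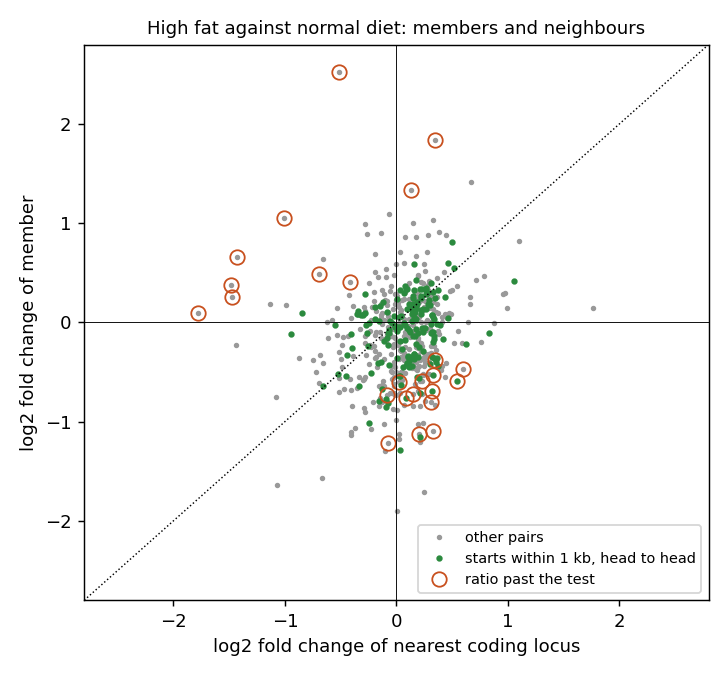
Log2 fold change (high fat against normal diet) of each of the 546 members tested (vertical axis) against that of its nearest coding locus (horizontal axis), with the dotted line marking equal change. Green points are head to head starts within 1 kb, and circles mark the 24 pairs whose ratio passed the test.

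The ratio of a member to its neighbour, tested with limma over 1189 non-coding and coding pairs, was higher in high fat islets for 10 members and lower for 14. Over all those pairs 6.39% passed (1.43% higher and 4.96% lower). The member had passed its own test in 8 of the 24 pairs, the coding neighbour in 7, both in 1 and neither in 10. Without any 1 of the normal diet libraries at most 1 member passed, and without high fat library 1, 2 or 3 the counts were 2 and 0, 3 and 0, and 16 and 46. In the pair of Oaz1 and Lingo3, Oaz1 had 55.4 ± 5.5 and 59.2 ± 2.3 CPM (SD, n = 3 each) while Lingo3 had 1.20, 1.82 and 1.99 CPM in the normal diet libraries and 0.547, 0.424 and 0.486 CPM in the high fat libraries. All high fat libraries of Lingo3 were below its normal diet libraries, and the ratio passed (limma difference 1.82, SE 0.18, adjusted p = 0.0046). Against the nearest coding locus on its own strand the difference of Oaz1 was 0.915 and did not pass (limma adjusted p = 0.158).

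Gm10863 and Sox10, a transcription factor of Schwann cells, start 1550 bases apart. Gm10863 had 0.624, 0.821 and 0.722 CPM in the normal diet libraries and 1.47, 1.10 and 0.856 CPM in the high fat libraries, while Sox10 had 0.776, 0.930 and 0.771 CPM and 0.247, 0.414 and 0.262 CPM. Both were without overlap, in opposite directions, and the ratio passed (limma difference 2.03, SE 0.29, adjusted p = 0.021). Gm10863 alone did not pass (edgeR adjusted p = 0.10). Its difference from the nearest coding locus on its own strand was 0.892 and did not pass either (limma adjusted p = 0.0852). Of 5 Schwann markers 3 (Sox10, Ngfr and Gfap) were lower and none higher, and their summed level ran from 16.66 to 19.46 CPM in normal diet and from 8.221 to 14.64 CPM in high fat libraries. Their part in this ratio was not tested.

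The other ratios named rose for Gm2115 against Fah (limma difference 1.18), 1700049E15Rik against Ccdc91 (1.44) and XLOC_024455 against Isg15 (1.20), an interferon-induced gene with a log2 fold change of -0.70 and under 0.5 CPM. They fell for C820005J03Rik against Ufm1 (-1.06), Gm15246 against Hccs (-1.05), Gsdmcl-ps against Fam49b (-1.28), AL805899.1 against XLOC_024836 (-0.83) and 4933433G15Rik against Mapk6 (-0.84). Ufm1 encodes a ubiquitin-like modifier of the endoplasmic reticulum and rose by 0.60 on the log2 scale, while C820005J03Rik had 7.47, 7.26 and 6.03 CPM against 4.74, 5.08 and 5.19 CPM. They lie 78602 bases apart, and against the nearest coding locus on its own strand the difference of C820005J03Rik was 0.04. Gm15246 and Hccs, the heme lyase of cytochrome c, start 50 bases apart. Gm15246 had 3.01, 2.70 and 2.85 CPM in the normal diet libraries and 1.44, 1.40 and 2.45 CPM in the high fat libraries, all below the normal diet range, with high fat library 3 nearest to it. 4933433G15Rik fell by 0.76 on the log2 scale (SE 0.16, edgeR adjusted p = 0.030), from 4.04, 3.18 and 3.67 CPM to 2.13, 1.92 and 2.39 CPM, while the kinase gene Mapk6, whose start is 111 bases away, had a log2 fold change of 0.09.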

How the data were processed

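Total RNA of 6 islet libraries (3 per diet) was sequenced after removal of ribosomal RNA, without poly(A) selection, with a stranded kit, per the labels' protocols. Reads were processed on build mm9 with TopHat2 2.0.8, HTSeq 0.5.4p3, Cufflinks 2.1.1 and edgeR, per the submitters' processing notes; order and settings are not given in the sources used here. The authors deposited raw counts per locus, scaled values (a signal, the count times a constant per library) and the assembled transcripts. Counts of 39470 loci entered R 4.3.3, with edgeR 4.0.16, limma 3.58.1 and DESeq2 1.42.0. Loci passing filterByExpr (23983, 546 of them members) were TMM-normalised and tested for diet alone, two-sided, with the quasi-likelihood test and Benjamini-Hochberg adjustment over all loci, at a threshold of 0.05. SEs were derived from the test, as |log2 fold change| over the root of its F statistic. The ratio of a member to its nearest tested coding locus was the difference of log2 CPM (prior count 2), tested with limma trend.

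The transcripts carry no symbols. Loci were named by matching ordered intron and exon lengths to GENCODE M21, with no coordinates converted; shifted introns gave 0.0136%, 0.921% and 2.32% as many matches for chains, intron with exon end, and single introns. Gene lists and markers were looked up by those names, and promoters and microRNAs by RefSeq symbol. The members and lists were chosen with earlier results of these data known. Named are the 8 largest changes past the threshold in each direction among members of 1 CPM or more whose diets did not overlap, the 10 members of highest CPM, list members, up to 8 head to head pairs within 1000 bases with a call on either side, and up to 5 ratios past the threshold in each direction. Exceptions are given where they occur, and 1 member is not reported here by name. On simulated counts of 23982 loci for the same comparison, 21.6% of changes of 1.5-fold were recovered, 84.1% of those of 2-fold and 100% of those of 4-fold, with 6 false of 138 calls. The changes were placed only in loci with a mean of at least 60 counts per library, and all loci had the same dispersion (0.0287). Recovery at members with fewer counts was therefore not measured.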

Additional observations from a re-analysis of the deposited data

How the results depend on the processing

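DESeq2 called 28 members higher and 46 lower, coding-only TMM factors 8 and 38, limma on the scaled values 7 higher and 79 lower, no filter 9 higher, and members at least 5000 bases from a coding locus included 20 lower. Leaving out each library in turn gave from 0 to 25 members higher and from 0 to 58 lower, and ratios from 0 to 16 higher and from 0 to 46 lower. The 0 counts of members came without high fat library 2 (101 members at an unadjusted p under 0.05) or without normal diet library 1, 2 or 3 (118, 123 and 109; lowest adjusted p 0.093, 0.074 and 0.083). Over all loci the same fits called 86 without high fat library 2 and 0 without normal diet library 1, 2 or 3. The cause of these low counts was not tested. Against the nearest coding locus on the same strand 27 ratios were lower. Of the 10 named ratios 6 were the same there, 3 were weaker and 1 turned sign. The median of the members stayed negative in every alternative run, from -0.167 to -0.031. In every alternative fit the median of all loci was negative too, from -0.151 to -0.044. The members had the less negative median with DESeq2, with no filter and without high fat library 1 or 2. They had the more negative one in the other fits.

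Same-numbered libraries of the diets had correlations of deviations of -0.075, 0.075 and -0.014, and differently numbered ones from -0.161 to 0.151. The labels do not say whether the numbers pair the samples. With 3 libraries per diet these correlations cannot decide it. With a replicate block, 0 members were higher and 1 (Lncppara) lower, beside 74 calls over all loci, and 4 ratios were lower.

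Signs turned for some named members, none of which had passed the test. With coding-only TMM factors 1700022H01Rik was -0.038, Mir22hg -0.055 and Gm4419 -0.006. With limma on the scaled values Mrln was -0.041, Oaz1 -0.102, 1700022H01Rik -0.043, Mir22hg -0.164, Gm4419 -0.128, Dubr -0.08 and 1810008I18Rik -0.046. With DESeq2 1700020I14Rik was 0.038 and A230057D06Rik 0.019, and with the block 1700022H01Rik was -0.012 and Fendrr 0.001. Over the fits with 1 library left out, the lowest and highest values were -0.306 and 0.106 for Gm16998, -0.004 and 0.124 for Oaz1, -0.358 and 0.276 for 1700022H01Rik, -0.066 and 0.137 for Mir22hg, -0.001 and 0.132 for Gm4419, -0.075 and 0.04 for 1700020I14Rik, -0.116 and 0.044 for A230057D06Rik, and -0.349 and 0.528 for Fendrr. The ratio of C820005J03Rik, which had passed, was 0.036 against its same-strand neighbour. Without members matched to protein coding genes (11 higher, 31 lower) or sharing over 10% of exonic bases (13 and 28), both chosen after seeing the data, the counts were close to the main ones. Most changes of 1.5-fold were missed in the simulation, which changed only loci of higher counts. Many members hold few counts, and recovery at those was not simulated.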
